A study of Mus musculus with 17 samples.

Results

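Transcript levels of whole mouse embryos at E12.5 were set against the number of Klf3 H275R alleles. Of the 17 arrays of the series, the 11 with a genotype on this scale were used: 4 of WT embryos (0 alleles), 4 of Klf3 H275R/+ embryos (heterozygotes, 1 allele) and 3 of Klf3 H275R/H275R embryos (homozygotes, 2 alleles). The remaining 6 arrays, 2 of CH heterozygous and 4 of CH homozygous embryos, carry a gene trap of Klf3 in place of the point mutation and are only given beside the results. Arrays are named by genotype and the replicate number of the labels (WT 1 to WT 4).

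KLF3 is a zinc finger transcription factor of the Krüppel-like family. It binds CACCC-type sequences in DNA and mostly represses, through the corepressor CTBP, and in red cell precursors it acts on part of the same genes as the activator KLF1. H275R exchanges a histidine of KLF3 for an arginine. The allele came from a chemical (ENU) mutagenesis screen, in which a carrier's other mutations can travel with the allele, and effects of linked changes cannot be told apart from those of H275R. The strain of the embryos is not in the labels, and the series' design states that litters were matched only as far as possible, without saying which embryos share one. At E12.5 the fetal liver is the main site at which red cells form, beside hepatocytes that secrete plasma proteins, while primitive red cells from the yolk sac still circulate.

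RNA of the 11 arrays was read as log2 levels after robust multiarray average (RMA) normalization over 39137 probe sets, of which 23521 carry 1 gene symbol and stand for 22180 genes. Array medians lay between 6.68 and 6.78, and pairs of arrays correlated at 0.984 to 0.994 over probe sets. WT 4 stood apart on the first principal component (36.5, against -25.8 to 16.1 for the other 10 arrays), and its skeletal muscle and cartilage genes were lower than in the other WT arrays. The Y-linked Kdm5d was high only in WT 2 (9.70) and H275R homozygote 1 (9.54), so the sexes of the embryos were not balanced over the genotypes. Since the embryos of 1 group may share a litter, each p-value reads only the spread among these embryos.

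Klf3 itself did not follow the number of alleles. It read 9.80, 9.48, 9.61 and 9.55 in WT, 9.66, 9.70, 9.57 and 9.45 in heterozygotes and 9.65, 9.33 and 9.38 in homozygotes, and the 3 groups overlapped (slope -0.07 ± 0.05 (SE) log2 units per allele, adjusted p = 0.883 in limma). Since the point mutation leaves the transcript in place, its level does not check the labels. In the CH arrays Klf3 read 9.64 and 9.09 in heterozygotes and 5.27 to 6.13 in homozygotes.

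A straight line on the number of alleles was fitted to each probe set with limma, and the Benjamini-Hochberg adjustment ran across every probe set. At an adjusted p under 0.1, 12 probe sets fell with each H275R allele (0.0307% of those tested) and 0 rose (0.00%). At an unadjusted p under 0.05, 1501 probe sets were lower (3.84%) and 874 were higher (2.23%). Among the 22180 genes this excess was absent, with 595 lower (2.68%) and 612 higher (2.76%). Array medians were 6.73 to 6.78 in WT and 6.68 to 6.73 in homozygotes, and whether this shift adds to the excess was not tested. Of the 12 probe sets, 7 carry the symbol of 1 gene: Kel, Hsd3b6, Xk, Ube2l6, Fah, Gimap4 and Ank1 (0.0316% of the 22180 genes). The other 5 have no single gene symbol in the annotation and are not named. The count rested on single arrays: it was 1 (Kel) without H275R homozygote 3, 3 without H275R homozygote 2, 26 without H275R homozygote 1 and 24 without WT 2.

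**Figure D1:**
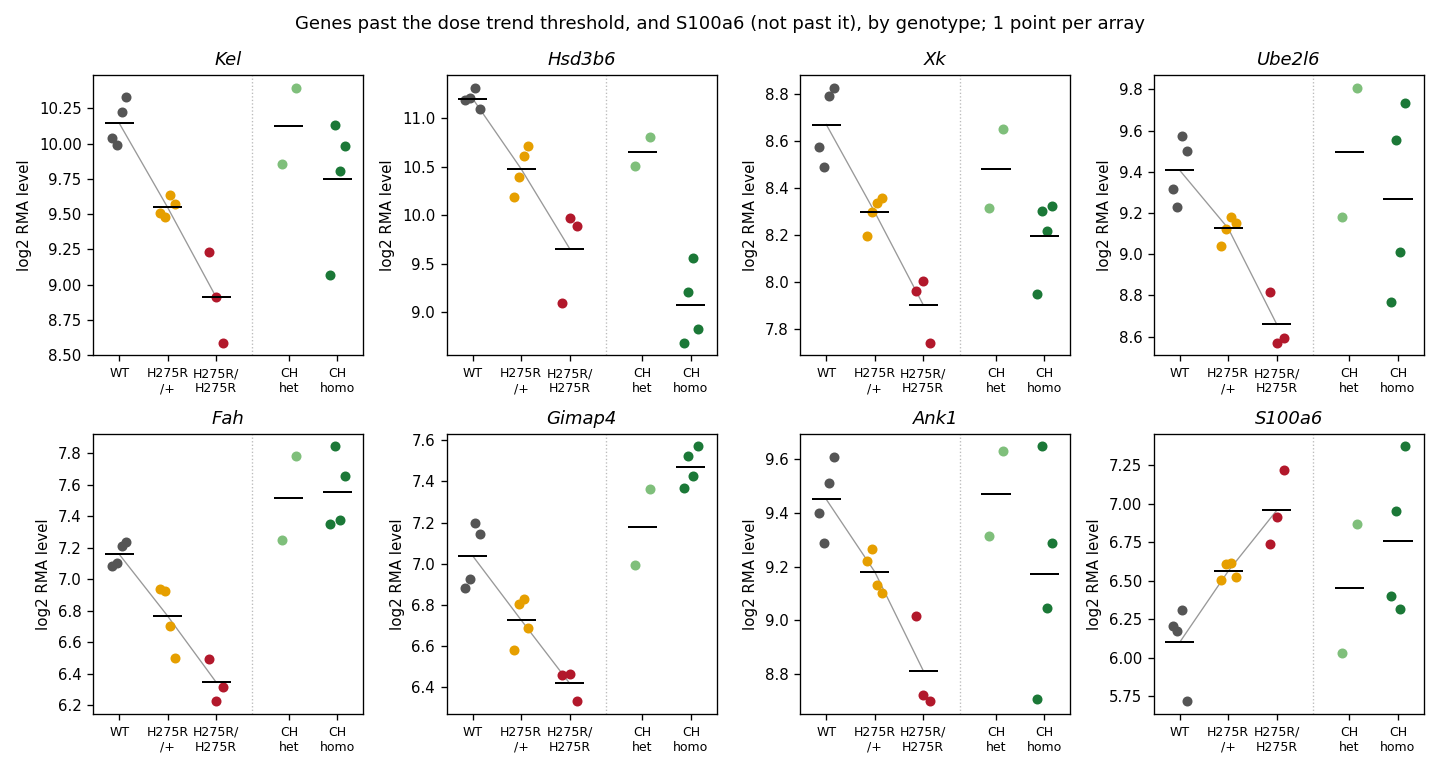
Log2 RMA level (vertical axis, scaled per gene) of the 7 genes past the dose trend threshold and of S100a6, which did not pass it, by genotype; each point is 1 array, each black bar a group mean, and the grey line joins the means of 0, 1 and 2 H275R alleles. In all 8 panels every heterozygous array lies between the WT and the homozygous arrays, and Fah and Gimap4 in CH homozygotes lie above all WT arrays.

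The promoters of the 3 called genes of smallest p are given with each CACCC, or GGGTG on the opposite strand, in capitals, because CACCC is the core of the sequence that KLF3 binds. The windows run from 250 bases before the RefSeq start site to 50 bases after it, and Fah is added as the gene with the most matches.
Kel promoter, GRCm38.p6 chr6:41704276-41704575, minus strand: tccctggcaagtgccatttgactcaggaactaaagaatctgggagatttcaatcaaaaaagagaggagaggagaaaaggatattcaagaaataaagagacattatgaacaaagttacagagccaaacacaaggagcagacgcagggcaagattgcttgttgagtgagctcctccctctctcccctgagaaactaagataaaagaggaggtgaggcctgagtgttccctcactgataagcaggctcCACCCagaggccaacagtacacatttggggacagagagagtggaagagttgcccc
Hsd3b6 promoter, GRCm38.p6 chr3:98814394-98814693, minus strand: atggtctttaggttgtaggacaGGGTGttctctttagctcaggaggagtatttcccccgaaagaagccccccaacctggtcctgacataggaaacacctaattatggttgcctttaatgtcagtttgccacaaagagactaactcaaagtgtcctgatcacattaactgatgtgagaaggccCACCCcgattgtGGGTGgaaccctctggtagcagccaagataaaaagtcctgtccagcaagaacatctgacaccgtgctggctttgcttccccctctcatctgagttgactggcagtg
Xk promoter, GRCm38.p6 chrX:9272534-9272833, plus strand: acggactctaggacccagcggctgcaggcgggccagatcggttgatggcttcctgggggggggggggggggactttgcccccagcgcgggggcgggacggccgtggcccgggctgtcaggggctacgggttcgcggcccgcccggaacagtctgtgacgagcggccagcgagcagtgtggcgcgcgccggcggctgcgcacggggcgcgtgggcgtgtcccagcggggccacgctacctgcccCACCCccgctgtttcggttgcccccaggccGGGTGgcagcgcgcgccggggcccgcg
Fah promoter, GRCm38.p6 chr7:84605893-84606192, minus strand: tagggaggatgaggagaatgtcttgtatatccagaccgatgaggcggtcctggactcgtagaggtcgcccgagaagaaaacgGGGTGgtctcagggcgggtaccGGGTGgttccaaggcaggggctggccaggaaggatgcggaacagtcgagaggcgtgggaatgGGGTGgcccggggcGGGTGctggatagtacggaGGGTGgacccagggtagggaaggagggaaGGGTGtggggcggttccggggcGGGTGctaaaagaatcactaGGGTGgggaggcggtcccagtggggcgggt
A promoter entry was matched for 6 of the 7 called genes, all but Ank1. All 6 windows held CACCC on 1 strand or the other: 1 match in Kel, 3 in Hsd3b6, 2 in Xk, 2 in Ube2l6, 8 in Fah and 1 in Gimap4. Among all 32851 windows of this length, 57.5% held at least 1, with a mean of 0.97 matches per window. The windows of the called genes had a mean of 2.83, raised by the 8 matches of Fah. Kel and Gimap4 held 1 each, and the difference was not tested. GATAA, the core of the sequence bound by the red cell factor GATA1, was counted on both strands too and was present in 3 of the 6 windows (Kel 2, Hsd3b6 1 and Gimap4 1), against 25.4% of all windows. These are counts of letters in a fixed window and not of bound sites.

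Kel encodes the Kell blood group antigen, a metalloprotease of the red cell surface. Kel read 10.04, 9.99, 10.22 and 10.33 in WT, 9.50, 9.48, 9.63 and 9.57 in heterozygotes and 9.23, 8.91 and 8.59 in homozygotes. No array of 1 genotype overlapped another genotype, and homozygote 1 was the highest of the homozygotes. The means were 10.14 ± 0.16 in WT (SD, n = 4), 9.55 ± 0.07 in heterozygotes (n = 4) and 8.91 ± 0.32 in homozygotes (n = 3). The slope was -0.62 ± 0.065 (SE) log2 units per allele (95% CI -0.76 to -0.48, adjusted p = 0.0249, limma), so each allele left the level at 0.652 of the one before. On unlogged values heterozygotes averaged 65.8% and homozygotes 43.0% of WT. In whole-embryo RNA, a change in the number of cells of a type and a change in RNA per cell cannot be told apart, for Kel or for any other gene.

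Xk encodes the membrane protein that is bound to Kell in the red cell membrane. Xk read 8.58, 8.49, 8.79 and 8.83 in WT, 8.20, 8.30, 8.34 and 8.36 in heterozygotes and 7.96, 8.01 and 7.74 in homozygotes, again without overlap. Its slope was -0.38 ± 0.047 (adjusted p = 0.0434, limma), and homozygotes averaged 58.6% of WT. Xk lies on the X chromosome. With Kdm5d as a covariate its adjusted p was 0.0765, and without H275R homozygote 3 it was 0.204.

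Hsd3b6 encodes a 3-beta-hydroxysteroid dehydrogenase, an enzyme of steroid hormone synthesis, and had the largest fall per allele of the 7 genes. Hsd3b6 read 11.18, 11.20, 11.31 and 11.10 in WT, 10.19, 10.39, 10.61 and 10.71 in heterozygotes and 9.10, 9.97 and 9.89 in homozygotes. The 4 WT arrays lay close together, the groups did not overlap, and homozygote 1 lay below the other homozygotes. The slope was -0.77 ± 0.092 (adjusted p = 0.0434, limma), with heterozygotes at 61.1% and homozygotes at 35.5% of WT on unlogged values. Without H275R homozygote 3 the adjusted p was 0.135.

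Ube2l6, which encodes an ubiquitin-conjugating enzyme that also serves the ubiquitin-like ISG15, read 9.32, 9.23, 9.57 and 9.50 in WT, 9.04, 9.12, 9.18 and 9.15 in heterozygotes and 8.82, 8.57 and 8.59 in homozygotes. Ank1 encodes ankyrin, which ties the spectrin skeleton to the red cell membrane, and read 9.40, 9.29, 9.51 and 9.61 in WT, 9.22, 9.27, 9.13 and 9.10 in heterozygotes and 9.02, 8.72 and 8.70 in homozygotes. Both were ordered without overlap, though for Ank1 heterozygote 2 came close to WT 2. Their slopes were -0.37 ± 0.048 (adjusted p = 0.0434) and -0.32 ± 0.048 (adjusted p = 0.0936, limma). Without H275R homozygote 3 the adjusted p was 0.274 for Ube2l6 and 0.323 for Ank1 (limma). After centring each array on its median the values were 0.120 and 0.187 (limma). A further, dimmer probe set of Ank1 had a slope of -0.02 (adjusted p = 0.959, limma), so the fall is that of 1 of its probe sets.

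Fah encodes fumarylacetoacetate hydrolase, the last enzyme of tyrosine breakdown, and Gimap4 a GTPase of lymphoid cells. Fah read 7.08, 7.10, 7.21 and 7.24 in WT, 6.94, 6.92, 6.70 and 6.50 in heterozygotes and 6.50, 6.22 and 6.32 in homozygotes, with heterozygote 4 close to homozygote 1. Gimap4 read 6.88, 6.93, 7.20 and 7.15 in WT, 6.58, 6.81, 6.83 and 6.69 in heterozygotes and 6.46, 6.46 and 6.33 in homozygotes. The slopes were -0.41 ± 0.053 (adjusted p = 0.0434) for Fah and -0.31 ± 0.046 (adjusted p = 0.0754, limma) for Gimap4. Without H275R homozygote 3 the adjusted p was 0.274 for Fah and 0.323 for Gimap4 (limma). After centring each array on its median the values were 0.120 and 0.180 (limma).

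Hsd3b6 read 10.51 and 10.80 in CH heterozygotes and 8.69, 9.21, 9.55 and 8.83 in CH homozygotes, all below the WT arrays. Fah read 7.25 and 7.78 in CH heterozygotes and 7.35 to 7.84 in CH homozygotes, and Gimap4 read 7.37 to 7.57 in CH homozygotes, so that for both genes every CH homozygote was above every WT array while every H275R array was below. Kel (9.07 to 10.13), Ank1 (8.70 to 9.65) and Ube2l6 (8.77 to 9.74) were spread widely among CH homozygotes and overlapped WT and H275R homozygotes alike. Xk read 7.95, 8.30, 8.22 and 8.32 in CH homozygotes, all below the WT arrays. CH groups and H275R groups share the same WT arrays, and these differences were not tested. The paper states that the H275R mice and gene trap mice it phenotyped differed in genetic background. Allele and background therefore cannot be told apart in this contrast. With CH homozygotes as a further group in the fit, 6 probe sets passed, and with all 17 arrays 3 did.

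The 12 probe sets were close to additive on the log2 scale. Heterozygous means lay between those of WT and homozygotes in 12 of 12, a position that 38.2% of all probe sets and 38.4% of genes share, and the heterozygotes had made 0.377 (Ube2l6) to 0.609 of the change seen in homozygotes. The departure, which is the heterozygous mean minus the midpoint of WT and homozygotes, ranged from -0.14 to 0.09, and the 95% intervals of all 12 departures held 0 (outermost bounds -0.45 and 0.54). A trend test favours probe sets of this shape, so it is a description. The intervals leave room for sizeable departures: that of Kel was -0.23 to 0.26 and that of Hsd3b6 -0.30 to 0.40, beside homozygote minus WT differences of -1.23 and -1.54. With both mutant genotypes coded alike 1 probe set passed the threshold, and with heterozygotes coded as WT 0 did.

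**Figure D2:**
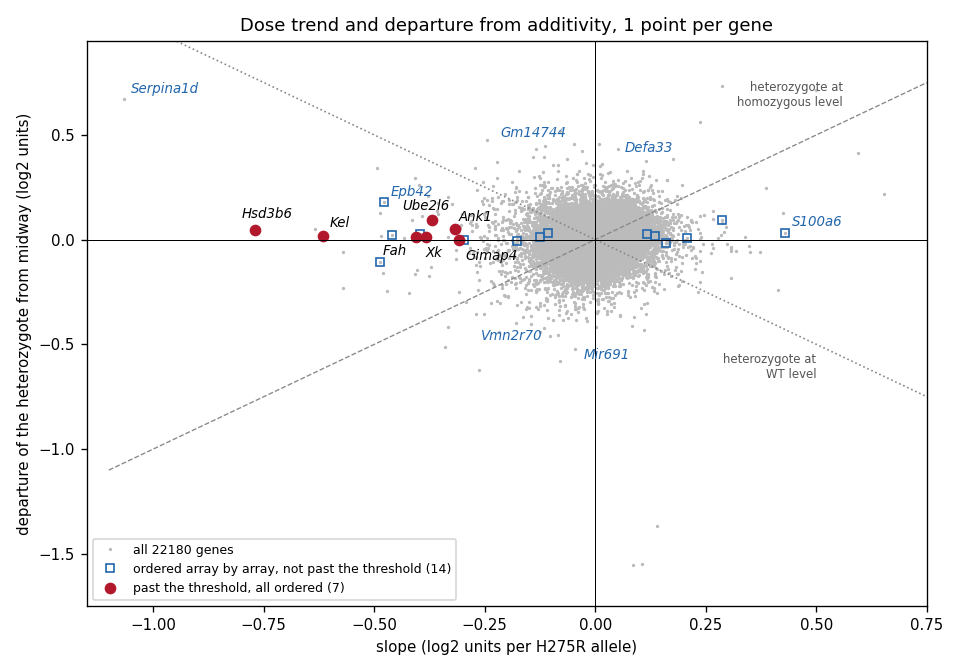
Each point is 1 of 22180 genes, by the slope per H275R allele (horizontal axis, log2 units) and the departure of the heterozygous mean from the midpoint of WT and homozygotes (vertical axis, log2 units); the dashed line marks heterozygotes at the homozygous level and the dotted line heterozygotes at the WT level. The 7 called genes lie to the left with departures between 0.00 and 0.09, and the 3 lowest points are the Y-linked Kdm5d, Uty and Eif2s3y.

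Several genes just missed the threshold, with an adjusted p slightly above 0.1. Ell2, an elongation factor of RNA polymerase II that was picked after its value was seen, was among them through a probe set with a slope of -0.32 ± 0.051, while its brighter probe set, which stands for the gene in the counts of genes, had a slope of -0.15 (adjusted p = 0.385, limma). Trim58, an E3 ubiquitin ligase of maturing red cells, had a slope of -0.30 ± 0.047, Dnase1l1, a nuclease, -0.18 ± 0.029, and S100a6, a calcium-binding protein, 0.43 ± 0.069, each with an adjusted p of 0.103 (limma), as had the first probe set of Ell2. S100a6 read 6.21, 6.18, 6.31 and 5.72 in WT, 6.50, 6.61, 6.62 and 6.52 in heterozygotes and 6.74, 6.92 and 7.22 in homozygotes. Among genes with a positive slope it had the lowest p, and its groups did not overlap. When only the probe sets with 1 gene symbol were tested, 37 passed, of which 26 were lower and 11 higher, and those included Trim58, Dnase1l1 and S100a6.

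Order was also counted without means. In 28 probe sets every homozygous array lay beyond every heterozygous array, and every heterozygous array beyond every WT array. Homozygotes were the lowest in 22 of them (0.0562%) and the highest in 6 (0.0153%). After centring each array on its median the split was 11 lower and 12 higher, and after quantile normalization 17 and 10, so the direction of the majority depended on the scale. By gene, 15 were lowest in homozygotes (0.0676%) and 6 highest (0.0271%). Of these 21 genes, 0 lie on chromosome 5, which carries Klf3. The share of all genes on chromosome 5 was not counted, and the ordered probe sets without a gene symbol had no chromosome. Whether linked changes play a part was therefore not tested. Besides the 7 called genes and Trim58 and Dnase1l1, the genes lowest in homozygotes were Epb42, Ermap, Slc25a37, Serpina1c, Mageb16 and Tbcel. The genes highest in homozygotes were S100a6, Folr2, Fxyd5, Tmem255a, Iqgap1 and Zfp382.

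Epb42, protein 4.2 of the red cell membrane, read 8.75, 8.75, 8.93 and 8.92 in WT, 8.67, 8.56, 8.38 and 8.52 in heterozygotes and 8.35, 7.66 and 7.60 in homozygotes (slope -0.48, adjusted p = 0.136, limma). Ermap, an adhesion protein of red cells that carries the Scianna blood group, had a slope of -0.46 (adjusted p = 0.136), and Slc25a37, mitoferrin, which brings iron into the mitochondria for heme, one of -0.40 (adjusted p = 0.141, limma). In these genes, as in Kel and Ank1, homozygote 1 was the highest of the homozygotes. Serpina1c, an alpha-1-antitrypsin of the liver, read 6.41, 6.33, 6.61 and 6.13 in WT, 5.75, 5.85, 5.70 and 5.84 in heterozygotes and 5.68, 4.90 and 5.64 in homozygotes. Its CH homozygotes read 4.72, 7.25, 5.70 and 7.67 and covered more than the range of the 3 genotypes.

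Folr2, a folate receptor that marks tissue macrophages, read 7.26, 6.83, 7.07 and 7.03 in WT, 7.53, 7.46, 7.34 and 7.36 in heterozygotes and 7.57, 7.54 and 7.71 in homozygotes (slope 0.29, adjusted p = 0.136, limma). Its means differed by 0.37 between heterozygotes and WT and by 0.19 between homozygotes and heterozygotes. Fxyd5, a regulator of the sodium pump, Tmem255a, and Iqgap1, a scaffold of the actin skeleton, had slopes of 0.21, 0.16 and 0.13, and the zinc finger gene Zfp382 0.12. The slope of Mageb16 was -0.12 and that of Tbcel, a tubulin-binding protein, -0.11, both small beside the called genes.

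Probe sets that departed from additivity were sought in the same fit. At an adjusted p under 0.1, 0 of 39137 passed in either direction (0.00%, lowest adjusted p = 0.9998 in limma). At an unadjusted p under 0.05, 736 were lower in heterozygotes than the midpoint (1.88%) and 529 higher (1.35%). All heterozygous arrays lay above all WT and homozygous arrays in 59 genes (0.266%) and below them in 37 (0.167%).

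The 5 of these genes with the largest departures were Mir691, Depdc1a, Gm14744, Vmn2r70 and Defa33, and they are given as values. They were picked for their departures, so their intervals do not test them, and each had an adjusted p of 0.9998 (limma). Mir691, a microRNA gene, had a departure of -0.52 (95% CI -1.06 to 0.02) with heterozygotes at 8.47, 7.09, 8.57 and 8.52. Depdc1a, a gene of dividing cells, had one of -0.35 with heterozygotes at 8.65, 7.70, 8.64 and 8.59. In both, heterozygote 2 alone was far below the rest. Defa33, a defensin gene, read 3.54, 3.49, 3.81 and 3.65 in WT, 3.95, 4.06, 4.06 and 4.25 in heterozygotes and 3.73, 3.57 and 3.73 in homozygotes, near the lowest level on the arrays (2.24), with a departure of 0.43 (95% CI 0.26 to 0.61). The pheromone receptor gene Vmn2r70 (-0.45) and the predicted gene Gm14744 (0.46) were dim too, at 2.65 to 3.45 and 4.96 to 5.51 in heterozygotes.

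Serpina1d, a further alpha-1-antitrypsin gene, was singled out after its values were seen. It had the largest slope in size of all genes (-1.07, adjusted p = 0.152, limma) and a departure of 0.67, so that heterozygotes lay above the midpoint.

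The step from WT to heterozygotes and the step from heterozygotes to homozygotes were also tested apart. For H275R/+ minus WT 0 probe sets passed, with 1126 lower (2.88%) and 646 higher (1.65%) at an unadjusted p under 0.05. For H275R/H275R minus H275R/+ 0 passed, with 833 lower (2.13%) and 577 higher (1.47%) at that level. For H275R/H275R minus WT 5 passed, all lower (0.0128%), beside 1459 lower (3.73%) and 836 higher (2.14%) at an unadjusted p under 0.05. The 4 with a gene symbol (0.0180% of genes) were Kel, Hsd3b6, Xk and Ube2l6 (adjusted p = 0.0767 each, limma). The trend, which uses all 11 arrays for 1 slope, thus added Fah, Gimap4 and Ank1. The unadjusted counts of the pairwise differences cover all probe sets and were not made for genes alone.

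Lists of genes by role are given by their counts and their median slope, beside all 22180 genes, whose median slope was 0.00, with 47.2% of slopes below 0 and 52.8% above, 2.68% of genes lower at an unadjusted p under 0.05 and 2.76% higher. The 5 lists of red cell genes other than globins had medians of -0.145 or lower, beside -0.142 for hepatocyte proteins and -0.13 for embryonic globins. The medians of the membrane skeleton (-0.145) and of the hepatocyte proteins were thus about equal. Among late red cell proteins 8 of 10 slopes were below 0, with a median of -0.30, and 6 were lower at an unadjusted p under 0.05. Among blood group and surface proteins 12 of 14 were below 0 (median -0.19, 7 lower and 1 higher at that level). In the membrane skeleton 8 of 9 were below 0 (median -0.15, 5 lower), in heme synthesis and iron uptake 11 of 12 (median -0.18, 8 lower) and among erythroid transcription factors and the erythropoietin receptor 10 of 14 (median -0.15, 7 lower). Kel, Xk, Ank1 and Ube2l6 were the members past the threshold. The lists and their members were chosen with earlier results of these data known. The counts therefore describe the lists and do not test them against all genes.

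**Figure D3:**
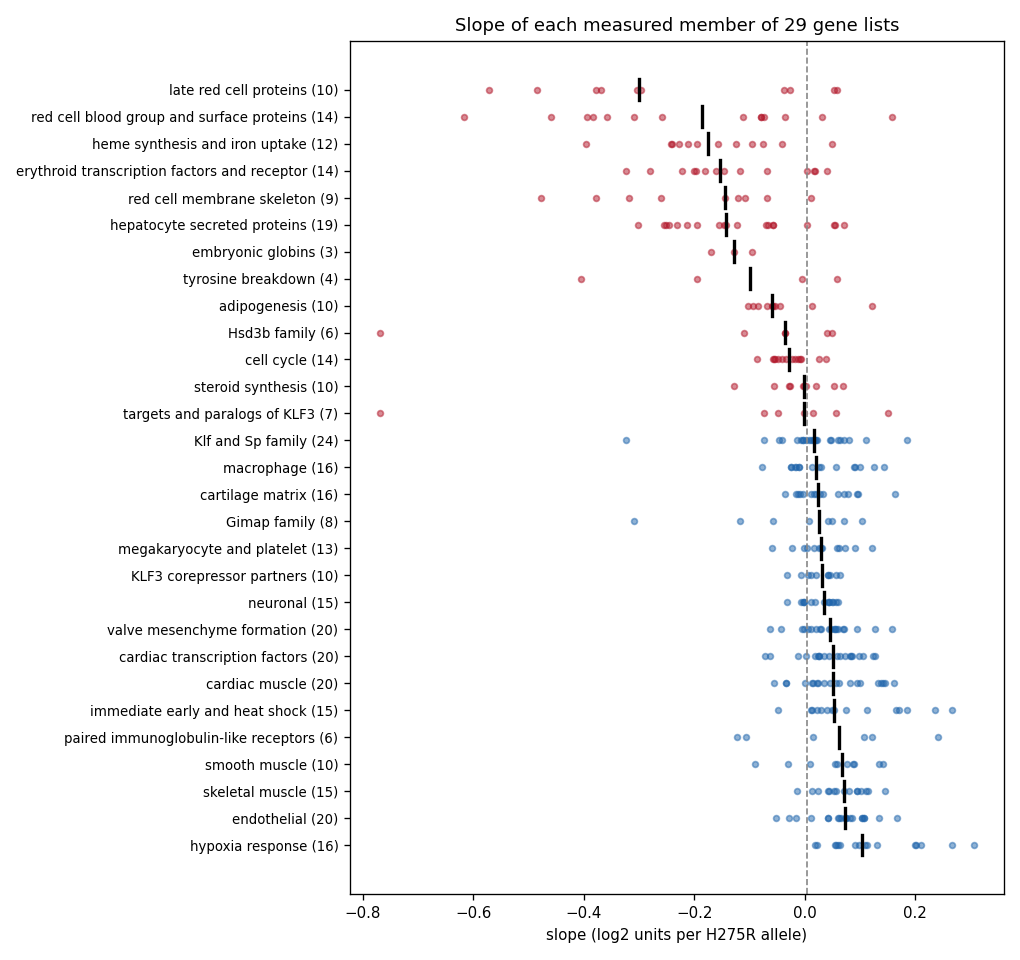
Slope per H275R allele (horizontal axis, log2 units) of each measured member, 1 point per gene, of 29 gene lists with their number of members; black bars mark list medians and the dashed line the median of all genes (0.00). The late red cell proteins have the lowest median (-0.30) and the hypoxia genes the highest (0.10). The lists and their members were chosen with earlier results of these data known.

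Slfn14, a ribosome-binding endonuclease of red cells and platelets, read 7.91, 7.81, 8.06 and 8.54 in WT, 7.57, 7.37, 7.47 and 7.39 in heterozygotes and 7.39, 6.76 and 6.68 in homozygotes (slope -0.57, adjusted p = 0.103, limma). Homozygote 1 lay above heterozygote 2, and WT 4 was the highest array. The E3 ligase Trim10 had a slope of -0.48, the blood group gene Rhd -0.39, beta-spectrin (Sptb) -0.38 and dematin (Dmtn) -0.26. Of the enzymes of heme synthesis, ferrochelatase (Fech) had a slope of -0.24, with Steap3, which reduces iron for uptake, at -0.24 and the mitochondrial transporter Abcb10 at -0.23.

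Of the transcription factors, Klf1, the activator of red cell genes, had a slope of -0.32 ± 0.125 but WT values from 8.01 to 9.22 that spanned those of the heterozygotes (8.26 to 8.65). Nfe2 had a slope of -0.28, Gfi1b -0.22 and the erythropoietin receptor Epor -0.20. Among embryonic globins, which mark primitive red cells, 3 of 3 slopes were below 0 (Hbb-bh1 -0.17, Hba-x -0.13, Hbb-y -0.10), and 1 of them was lower at an unadjusted p under 0.05. None of the 6 adult globins was matched to a probe set with 1 symbol.

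Averaged over list members, the heme and iron genes were the only red cell list in which no genotypes overlapped. Their means were 9.68 to 9.89 in WT, 9.62 to 9.65 in heterozygotes and 9.33 to 9.60 in homozygotes. Those of blood group proteins were 9.07 to 9.34 in WT, 9.03 to 9.09 in heterozygotes and 8.69 to 8.97 in homozygotes. Those of late red cell proteins were 8.18 to 8.53 in WT, 8.15 to 8.20 in heterozygotes and 7.76 to 8.04 in homozygotes, with WT 2 inside the heterozygous range in both lists. The 4 heterozygous arrays lay closer together than the WT arrays or the homozygous arrays in these 3 lists.

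**Figure D4:**
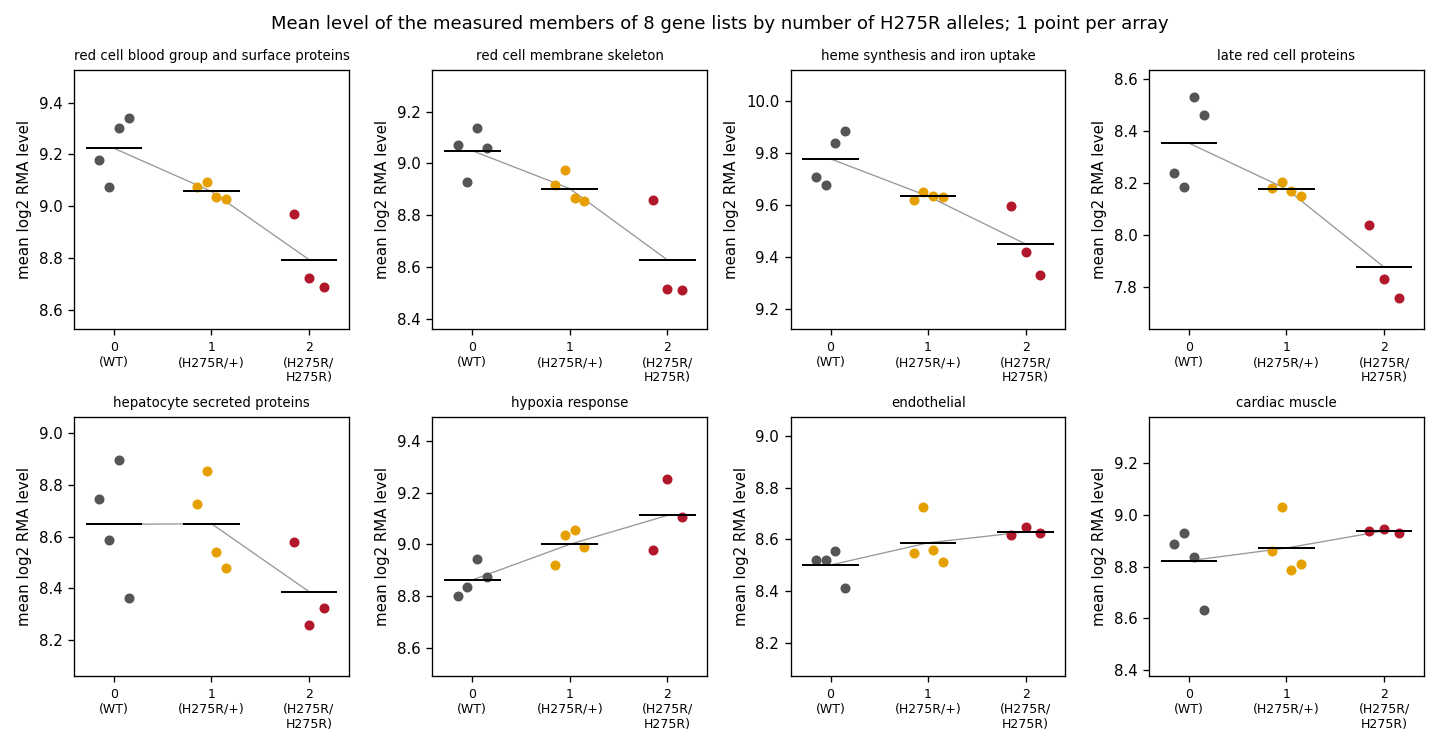
Mean log2 RMA level of the measured members of 8 gene lists (vertical axis, each panel 1 log2 unit high) by number of H275R alleles (horizontal axis); each point is 1 array, bars are group means and the grey line joins them. The red cell lists step down with each allele, the hepatocyte list is level between 0 and 1 allele, and the hypoxia list steps up.

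Genes of the hypoxia response, which cells switch on when oxygen is short, had the highest median slope of the lists with all 11 arrays (0.10). Without H275R homozygote 2, which had the highest mean of the list, the median was 0.07, below that of skeletal muscle genes (0.11). All 16 measured members had a slope above 0, and 8 of them were higher at an unadjusted p under 0.05, with 0 past the threshold. Egln3, an oxygen-sensing prolyl hydroxylase, read 8.74, 8.57, 8.74 and 8.35 in WT, 8.89, 9.02, 8.82 and 8.70 in heterozygotes and 9.17, 9.31 and 9.19 in homozygotes (slope 0.31, adjusted p = 0.127, limma). Ndrg1 read 8.33, 8.30, 8.48 and 8.14 in WT, 8.66, 8.81, 8.65 and 8.57 in heterozygotes and 8.81, 8.83 and 8.87 in homozygotes (slope 0.27, adjusted p = 0.127, limma). For Ndrg1 all mutant arrays were above all WT arrays, and for Egln3 heterozygote 4 lay below the highest WT array. Lactate dehydrogenase (Ldha) had a slope of 0.21 and the vascular growth factor Vegfa 0.20. List means were 8.80 to 8.94 in WT, 8.92 to 9.06 in heterozygotes and 8.98 to 9.25 in homozygotes.

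Of 19 secreted proteins of hepatocytes, 15 had a slope below 0 (median -0.14) and 8 were lower at an unadjusted p under 0.05. Their median difference was -0.01 between heterozygotes and WT and -0.27 between homozygotes and heterozygotes, so the median departure was 0.14 and 18 of 19 departures were above 0, where 11463 of all 22180 genes had one above 0. Apoa1, the main protein of high density lipoprotein, read 8.84, 8.66, 9.06 and 8.49 in WT, 8.83, 8.95, 8.67 and 8.64 in heterozygotes and 8.46, 8.16 and 8.19 in homozygotes (departure 0.25, unadjusted p = 0.0448, limma), and was picked after its value was seen. Apob, Apoa2 and Fgb had slopes of -0.30, -0.25 and -0.25. The list means overlapped between WT (8.36 to 8.89) and homozygotes (8.26 to 8.58) with WT 4 the lowest WT array, and without WT 4 the median departure was 0.09, without H275R heterozygote 2 0.07. In CH homozygotes Apob read 8.51, 9.98, 8.45 and 10.10, a wider range than in all 11 arrays together. For the tyrosine breakdown enzymes, of which the liver is the main site, 3 of 4 slopes were below 0 (median -0.10), with Hgd at -0.20 beside Fah.

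**Figure D5:**
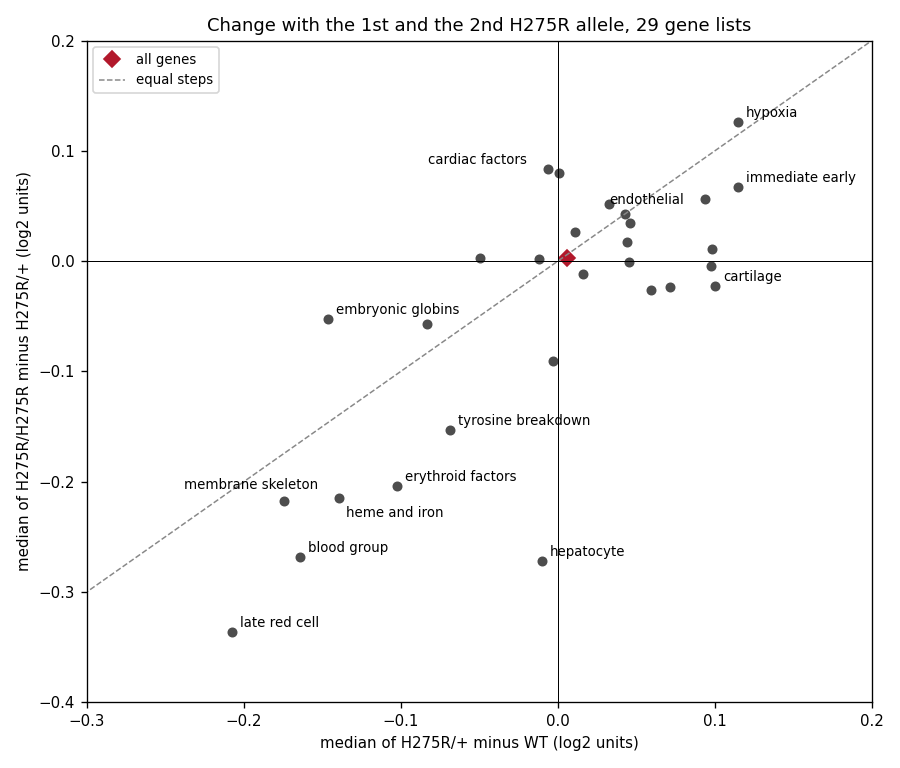
Median over list members of the change between H275R/+ and WT (horizontal axis, log2 units) and between H275R/H275R and H275R/+ (vertical axis, log2 units), 1 point per list for 29 lists; the diamond is the median of all genes and the dashed line marks equal steps. The hepatocyte list has a step of -0.01 followed by one of -0.27, and the hypoxia list has steps of 0.11 and 0.13.

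Lists of heart and vessel genes had small medians above 0, at a share of slopes above 0 of 52.8% in all genes. Endothelial genes had 17 of 20 slopes above 0 (median 0.07, 6 higher and 0 lower at an unadjusted p under 0.05), with the vessel factor Sox18 (0.17) and Plvap (0.13), a protein of capillary openings. Cardiac muscle genes had 17 of 20 above 0 (median 0.05, 2 higher), with the natriuretic peptide Nppa at 0.14 and the calcium store protein Casq2 at 0.16, for which WT 4 read 6.73 and the other WT arrays 7.92 to 8.05. Cardiac transcription factors had 17 of 20 above 0 (median 0.05, 3 higher, Nfatc1 at 0.13), genes of valve mesenchyme 16 of 20 (median 0.05, 2 higher, Snai1 at 0.16) and smooth muscle genes 8 of 10 (median 0.07, 1 higher). None passed the threshold. WT 4 was the lowest of the 11 arrays in the means of the cardiac muscle, endothelial, smooth muscle, skeletal muscle and cartilage lists, and without it their medians were 0.02 for cardiac muscle, 0.06 for endothelial, 0.03 for smooth muscle, 0.02 for skeletal muscle and -0.02 for cartilage genes.

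Among other cells of the blood, the macrophage list had 9 of 16 above 0 (median 0.02, 5 higher at an unadjusted p under 0.05, with Fcer1g at 0.14), the megakaryocyte list 10 of 13 (median 0.03, Vwf at 0.12) and the paired immunoglobulin-like receptors 4 of 6 (median 0.06, Lilrb4a at 0.24). Lilra6 was not matched to a probe set with 1 symbol. In the Gimap family, 5 of 8 slopes were above 0 (median 0.02), and Gimap4 was the only member past the threshold. Next in size were Gimap9 at -0.12 and Gimap6 at 0.10.

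Hsd3b6 was likewise the only one of 6 measured members of the Hsd3b family past the threshold, with 4 slopes below 0 and the next in size at -0.11 (Hsd3b5, at a level near 3.3). Of 10 genes of steroid synthesis, 6 had a slope below 0 (median 0.00), and Hsd17b3, an enzyme of testosterone synthesis, had the largest in size at -0.13. In the Klf and Sp family 8 of 24 were below 0 (median 0.02), where Klf4 had a slope of 0.19 (unadjusted p = 0.000411, adjusted p = 0.23, limma) beside Klf1 at -0.32. The KLF3 corepressor partners lay between -0.03 and 0.06 in slope, with 8 of 10 above 0.

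Of the genes that the study names as targets or paralogs of KLF3, Lgals3, a galectin, had a slope of 0.15 ± 0.055 (adjusted p = 0.722, limma) with 7.24, 6.86, 7.19 and 6.95 in WT, 7.13, 6.94, 7.17 and 7.30 in heterozygotes and 7.29, 7.44 and 7.37 in homozygotes. Each homozygote was above every WT array, and heterozygote 4 was above 1 homozygote. The unadjusted p of Lgals3 was 0.0179 (limma). By quantitative RT-PCR the paper reports significantly higher Lgals3 mRNA in H275R homozygous embryos at E12.5, and in embryonic livers of both mutant genotypes. The slopes of Klf8 (0.01), Crip1 (0.00), Pqlc3 (-0.05) and Ckm (0.06) were within 1 SE of 0. For Crip1 and Pqlc3 the CH homozygotes read 9.98 to 10.89 and 7.76 to 9.40, above all 11 arrays, while the 3 H275R genotypes overlapped. The CH heterozygotes read 9.72 and 10.31 for Crip1, also above all 11 arrays. For Pqlc3 they read 7.18 and 7.82, of which 7.82 was above all 11 arrays. For Klf8 the CH homozygotes read 8.32 to 8.73, likewise above all 11 arrays, and the CH heterozygotes 7.80 and 8.07. These differences of the CH arrays were not tested.

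The remaining lists were skeletal muscle (14 of 15 above 0, median 0.07), immediate early and heat shock genes (14 of 15, median 0.05, 4 higher at an unadjusted p under 0.05, with Nr4a1 at 0.27 and Ier3 at 0.24), cartilage matrix (11 of 16, median 0.02), neuronal genes (10 of 15, median 0.03), cell cycle genes (2 of 14, median -0.03) and adipogenesis (2 of 10, median -0.06).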

How the data were processed

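RNA of whole embryos was hybridised to Affymetrix mouse gene arrays, 1 sample per array. The deposited values are log2 levels that the authors made with RMA in Partek (both named in the submitters' processing notes), 1 column per array, and they were used as deposited. Probe sets were named from the platform annotation where it gives 1 gene symbol, and a gene with several probe sets was read from the one with the highest mean. The number of arrays limits the precision.

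The slope on 0, 1 and 2 H275R alleles, the departure of heterozygotes from the midpoint, and the 3 pairwise differences were fitted in limma 3.58.1 (R 4.3.3) on the 11 arrays with empirical Bayes moderation, Benjamini-Hochberg adjustment over 39137 probe sets and a threshold of 0.1. No probe set was filtered out. The scripts were tested on simulated data. Alternatives left out each array, recoded the dose, rescaled the arrays, changed the moderation or the set of probe sets, or added groups or Kdm5d.

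Named genes were Klf3, the 10 of smallest trend p, the 5 of largest departure among genes whose heterozygous arrays lay outside the other 2 genotypes, up to 12 ordered genes of largest slope, the genes the study names for its arrays, and up to 4 members of largest slope in each list. Other names were picked after their values were seen: Ell2, Serpina1d, Apoa1 and the ordered genes past the first 12. The members and lists were chosen with earlier results of these data known.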

Additional observations from a re-analysis of the deposited data

Results flagged for a closer look

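Among groups of 4 arrays, 1 array stood far from the other 3 for 12 of 208 values tested, and chance alone marks about 1 in 20. WT 4 was the odd array for Casq2 (6.73, others from 7.92), Nfatc1 (8.04, others from 8.43), Iqgap1 (9.33, others from 9.45), Abcb10 (9.60, others up to 9.39) and the skeletal muscle mean (7.78, others from 8.15). H275R heterozygote 2 was low for Mir691 (7.09, others from 8.47) and Depdc1a (7.70, others from 8.59), and H275R heterozygote 1 for Abcb10 (9.18, others from 9.35). WT 2 was high for the Y-linked genes Kdm5d (9.70), Uty (9.77) and Eif2s3y (9.96) and for the Y-linked mean (8.34), where the other WT arrays had means up to 4.23.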

How the results depend on the processing

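The 12 trend calls became 6 with CH homozygotes as a group, 3 with all 17 arrays, 1 with dominant and 0 with recessive coding, 30 with an intensity trend of the variance, 0 unmoderated, 5 with array weights, 4 after median centring, 5 after quantile normalization, 40 (32 lower, 8 higher) among probe sets at or above the median level, 37 among those with 1 gene symbol, 6 at an adjusted p under 0.05 and 4 with Kdm5d as a covariate. Leaving out 1 array gave 1 to 26. Without both arrays of high Kdm5d, an alternative chosen after seeing the data, 28 passed and 117 probe sets were ordered. The cause of these shifts was not tested.

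The 5 calls of homozygotes minus WT became 3 with all arrays, 0 unmoderated, 2 after median centring, 1 after quantile normalization, 17 at or above the median level, 28 with 1 gene symbol, 0 at an adjusted p under 0.05 and 3 with Kdm5d, and 0 to 30 with 1 array left out. Leaving out 1 array gave 0 to 1 calls for the departure, for heterozygotes minus WT and for homozygotes minus heterozygotes, and 41 to 66 ordered probe sets, where fewer arrays make order easier to meet.

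With the replicate number as a block, 0 trend calls, 0 calls of homozygotes minus WT and 4 of homozygotes minus heterozygotes were made. The 7 called genes then had adjusted p-values of 0.177 to 0.307 (limma). Deviations of same-numbered arrays correlated at -0.11 to 0.33, above 0.1 in 5 of 10 pairs, with a mean of 0.11 against -0.04 for other pairs. The labels do not say what a number stands for, and whether it marks a litter was not settled.

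Of the called genes, Kel passed with each array left out (adjusted p 0.00723 to 0.0845, limma). Of 1984 slopes of named genes under an alternative, 1943 kept their sign, and 0 called slopes changed sign. Part of this count was fixed in advance. Adding CH groups, or changing the moderation, the set of probe sets or the threshold, left the slope itself as it was. Fits on unlogged values and of list medians under other settings were also added after seeing the data. Depth here is the number of arrays, and dim probe sets near the lowest level carry little signal.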
